A study of Arabidopsis thaliana with 24 samples.

Results

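RPP4, SNC1 and RPP5 are immune receptor genes of one cluster on chromosome 4 of Arabidopsis thaliana, and CNGC11 and CNGC12 are neighbouring ion channel genes on chromosome 2. In leaves, all 5 transcripts stood at high levels in every library of 4 groups and at low levels in every library of the other 4, and the groups as labelled were the cool regimes in IT and the low-light regimes in SW. These 5 genes, of 33610 gene rows in the count table, were taken by identifier: AT4G16860 (RPP4), AT4G16890 (SNC1), AT4G16950 (RPP5), AT2G46440 (CNGC11) and AT2G46450 (CNGC12). They were chosen by their fold changes in earlier results of the same data, where the ecotype labels differed strongly in how the cool high-light regime compared with the warm low-light regime. That difference is described here and not tested.

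RNA was sequenced from the youngest fully developed leaf of vegetative plants of 2 ecotypes, Rodasen-47 from Sweden (SW) and Castelnuovo-12 from Italy (IT), grown from seed in chambers. The 4 regimes were high light and cool (HLC, 1000 µmol photons per square metre and second, with leaves at 14 °C by day and 12.5 °C by night), low light and warm (LLW, 100 µmol, 25 °C and 20 °C), low light and cool (LLC, 100 µmol, 16 °C and 12.5 °C) and high light and warm (HLW, 1000 µmol, 25 °C and 20 °C). All plants had light for 9 h a day, and 2 leaf discs of 0.73 square cm were taken when the night of 15 h ended. Each of the 8 groups had 3 biological replicates, 24 libraries in all. No mutation, transgene or infection is named for any group. Whether the replicates came from different plants or different chamber runs is not stated, and p-values cover only the spread among these libraries.

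RPP4, SNC1 and RPP5 encode intracellular receptors of the TIR-NBS-LRR class, in which a Toll/interleukin-1 receptor domain is joined to a nucleotide-binding domain and leucine-rich repeats. Such receptors recognise pathogen effectors and signal through EDS1 and PAD4 and through the helper receptors of the NRG1 and ADR1 families, which leads to salicylic acid production and expression of genes such as PR1. RPP4 and RPP5 are named for resistance to the downy mildew pathogen now called Hyaloperonospora arabidopsidis. Gain of function in SNC1 gives constitutive immunity and dwarf growth, which is milder in warm air. CNGC11 and CNGC12 encode cyclic nucleotide-gated cation channels, and fusion of the pair into one gene in the cpr22 mutant also activates immunity.

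The libraries held 10967425 to 17467653 counts each, of which 54.84% to 67.99% lay on plastid genes. Levels are given as counts scaled to a normalised library total of 1000000 (CPM), with the mean ± SD of 3 libraries where groups are summarised. Of 17709 genes with enough counts to be tested, none had every SW library above every IT library, or every IT library above every SW library. By contrast, 389 genes (2.2%) were higher in every library labelled IT_HLC, SW_LLW, SW_LLC and IT_LLC than in every other library, and 264 were lower in all of them. The libraries fall into sets that go against their ecotype labels, and every group is named below only as labelled. The library labelled IT_HLC replicate 3 carried transcripts of both sets: 16 genes of at least 5 CPM in every SW_HLC, IT_LLW, SW_HLW and IT_HLW library and at most 3 counts in every SW_LLW, SW_LLC and IT_LLC library stood in it at a median of 34.0% of their mean level in the first 4 of these groups, against 1.32% in IT_HLC replicate 1 and 0.361% in IT_HLC replicate 2. Tests and list counts that use IT_HLC are also given without that library. Leaf mesophyll markers summed to 6162 to 23194 CPM, while 4 of 5 root markers and 5 of 5 seed and pollen markers were at the lowest value of the table in every library.

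Several rows of the cluster are near copies, so that reads could pass between them when they were counted on one reference. In the RefSeq annotation of the assembly TAIR10.1, the receptor genes that have a row in the count table lie on one strand in the order RPP4, AT4G16880, SNC1, AT4G16900, AT4G16920, AT4G16930, AT4G16940, RPP5 and AT4G16960. The longest transcript of RPP5 shared 28.5% of its 100-base windows with another gene of the cluster, mostly with AT4G16920 (25.6%). The share was 9.1% for RPP4 and 3.7% for SNC1, and AT4G16960 had the highest share, 50.2%, nearly all with AT4G16940 (49.6%). Among the channels, CNGC11 shared 22% of its 100-base windows, most of them with CNGC12 (18%), and CNGC12 shared 14%. The levels of RPP5 and CNGC11 are the least certain of the 5 in this respect. Fewer transcripts, fewer cells that hold them, and reads of a differing allele that do not align to the reference cannot be told apart in these counts.

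RPP4 stood at 35.6, 37.2 and 41.8 CPM in replicates 1 to 3 of SW_HLC, against 173.6, 113.9 and 110.1 CPM in IT_HLC. In low light and warmth the order of the labels was the opposite, with 112.5, 96.8 and 101.3 CPM in SW_LLW, against 24.4, 29.0 and 28.4 CPM in IT_LLW. The groups did not overlap in either regime, which held in the same direction for 17% of all genes in HLC and 25% in LLW, and RPP4 was 3.47 times as high in IT_HLC as in SW_HLC and 3.80 times as high in SW_LLW as in IT_LLW. In LLC both labels were high, with 127.7, 112.7 and 151.2 CPM in SW_LLC and 118.5, 111.0 and 110.4 CPM in IT_LLC. In HLW both were low, with 25.0, 26.9 and 23.3 CPM in SW_HLW and 34.5, 29.8 and 28.5 CPM in IT_HLW. By mean level the order was IT_HLC, SW_LLC, IT_LLC, SW_LLW, SW_HLC, IT_HLW, IT_LLW and SW_HLW. Neighbouring groups in that order overlapped except SW_LLW with SW_HLC and SW_HLC with IT_HLW. The share of all genes with the same gaps was not counted.

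SNC1 had the same layout. It stood at 28.1, 28.8 and 32.9 CPM in SW_HLC, against 141.6, 103.1 and 87.0 CPM in IT_HLC, a mean 3.70 times as high in IT_HLC. It stood at 92.7, 83.5 and 84.1 CPM in SW_LLW, against 19.1, 19.9 and 25.1 CPM in IT_LLW, a mean 4.06 times as high in SW_LLW. Among the warm groups SNC1 was high in SW_LLW and low in the other 3, and among the cool groups it was low in SW_HLC and high in the other 3. In LLC the levels were 127.7, 107.8 and 143.6 CPM in SW_LLC and 106.8, 92.9 and 94.1 CPM in IT_LLC. In HLW they were 18.5, 22.8 and 19.8 CPM in SW_HLW and 28.0, 25.1 and 22.1 CPM in IT_HLW. The lowest library of the 4 high groups, at 83.5 CPM, was 2.54 times the highest of the 4 low groups, at 32.9 CPM.

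RPP5 had a wider gap than RPP4 and SNC1. It stood at 13.2, 10.5 and 11.7 CPM in SW_HLC, against 167.9, 130.9 and 110.2 CPM in IT_HLC, where the mean was 11.6 times as high. It stood at 102.3, 108.6 and 96.7 CPM in SW_LLW, against 12.7, 14.7 and 14.5 CPM in IT_LLW, a mean 7.35 times as high in SW_LLW. The 12 low libraries of RPP5 lay within 10.5 to 14.7 CPM, and no 2 neighbouring groups among them in the order of means were apart. In LLC the levels were 144.1, 126.5 and 164.9 CPM in SW_LLC and 140.3, 110.1 and 81.9 CPM in IT_LLC. In HLW they were 11.0, 13.7 and 12.3 CPM in SW_HLW and 14.3, 14.7 and 13.7 CPM in IT_HLW. The lowest high library was 5.56 times the highest low library.

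**Figure D1:**
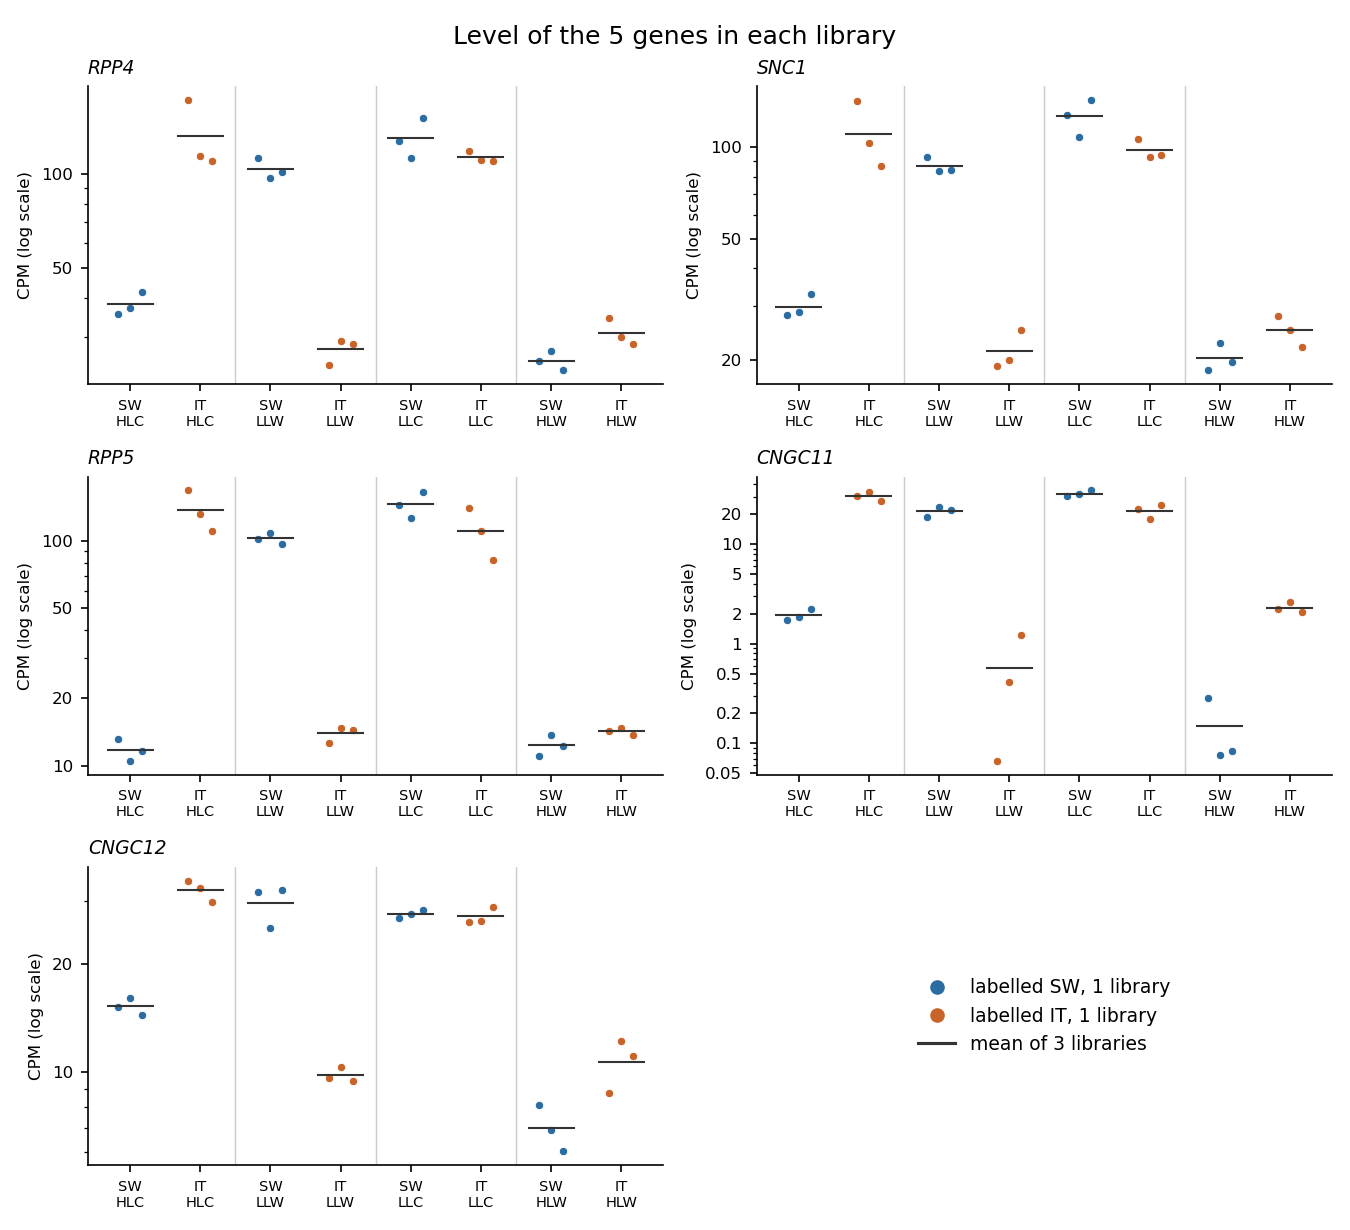
Level of the 5 genes in each of the 24 libraries, in CPM on a log axis, by group as labelled; points are libraries (blue, SW; orange, IT; replicates 1 to 3 from left) and lines are means of 3. Every library of IT_HLC, SW_LLW, SW_LLC and IT_LLC lies above every library of SW_HLC, IT_LLW, SW_HLW and IT_HLW for each gene, by 1.57 times for CNGC12 and up to 6.88 times for CNGC11.

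CNGC11 ranged from near the lowest value of the table to about the level of its neighbour CNGC12. It stood at 1.74, 1.84 and 2.24 CPM in SW_HLC, against 30.5, 33.8 and 27.1 CPM in IT_HLC, and at 18.9, 23.4 and 22.2 CPM in SW_LLW, against 0.0662, 0.414 and 1.23 CPM in IT_LLW. The IT_LLW libraries held 1, 5 and 17 counts of CNGC11, where 1 is the lowest value any row has, so its level there is poorly fixed. In LLC the levels were 30.2, 31.7 and 35.0 CPM in SW_LLC and 22.6, 17.9 and 24.7 CPM in IT_LLC. In HLW they were 0.286, 0.0757 and 0.0834 CPM in SW_HLW, from 4, 1 and 1 counts, and 2.23, 2.60 and 2.08 CPM in IT_HLW. Among the low groups, SW_HLC and IT_HLW lay above IT_LLW and SW_HLW in every library. The share of all genes with this order was not counted.

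CNGC12 had the narrowest gap of the 5 genes. It stood at 15.2, 16.1 and 14.5 CPM in SW_HLC, against 34.3, 32.6 and 29.8 CPM in IT_HLC, and at 31.8, 25.3 and 32.2 CPM in SW_LLW, against 9.60, 10.3 and 9.47 CPM in IT_LLW. The mean was 2.11 times as high in IT_HLC as in SW_HLC and 3.03 times as high in SW_LLW as in IT_LLW. In LLC it stood at 27.0, 27.6 and 28.4 CPM in SW_LLC and at 26.3, 26.4 and 28.9 CPM in IT_LLC. In HLW it stood at 8.09, 6.89 and 6.0 CPM in SW_HLW and at 8.72, 12.2 and 11.1 CPM in IT_HLW. Its 4 high groups overlapped one another in the order of their means, whereas SW_HLC lay above the other low groups and SW_HLW below them. How many of all genes had this order among the low groups was not counted. The mean of IT_HLC without replicate 3 was 3.77 times that of SW_HLC for RPP4, 4.09 times for SNC1, 12.7 times for RPP5, 16.6 times for CNGC11 and 2.19 times for CNGC12. CNGC11 made up 37.2% to 55.2% of the counts of the pair in the 4 high groups and 0.685% to 20.4% in the 4 low groups.

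The effect of HLC against LLW in SW minus that in IT, on which the genes were picked, on the log2 scale was -6.41 for RPP5, -3.91 for SNC1, -3.72 for RPP4, -9.20 for CNGC11 and -2.68 for CNGC12. A difference of either sign passed the test for 37.1% of all genes. SW against IT passed it for 25.5% of all genes in LLW and for 24.4% in HLC. Separation of all 12 libraries of the high groups from the other 12, in that direction, held for 2.2% of all genes, and for 1.02% with the lowest at least 2 times the highest. RPP4, SNC1, RPP5 and CNGC11 met the stricter form, and CNGC12, at 1.57 times, did not. The genes were picked on the HLC and LLW groups, which are part of this division, so the separation carries no test. In the same contrast 4 of 5 leaf mesophyll markers were called, all in the other direction (median log2 difference 1.14, against -0.03 over all genes), and the part of leaf makeup in the levels of the 5 genes was not tested.

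Scaled by the length of the longest transcript, the mean levels in SW_LLC were 35.3 CPM per kb for RPP4, 27.6 for RPP5, 25.8 for SNC1, 12.2 for CNGC11 and 8.19 for CNGC12. In IT_HLW the mean levels were 8.36 CPM per kb for RPP4, 5.12 for SNC1, 3.16 for CNGC12, 2.71 for RPP5 and 0.871 for CNGC11. RPP5 stood between RPP4 and SNC1 per length in SW_LLC and below both of them, and below CNGC12, in IT_HLW.

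Most other receptor rows of the cluster shared the layout. AT4G16920, annotated as a TIR-NBS-LRR receptor with no other name in the gene table, followed RPP4 and SNC1 closely, at 91.7 to 170.2 CPM in the high groups and 16.9 to 33.9 CPM in the low groups. AT4G16880, annotated as a leucine-rich repeat protein, was close to the lowest value of the table in the low groups, with 8.43 to 19.1 CPM in the high groups and 0.0614 to 0.406 CPM in the low groups, and AT4G16900 stood at 4.54 to 10.1 CPM and 0.0716 to 0.834 CPM. AT4G16880 shared none of its 100-base windows with the rest of the cluster and AT4G16900 shared 0.9%. At 50-base windows the shares were 2.6% and 5.6%. Their lowest high library was 20.8 and 5.45 times their highest low library, against 5.56 times for RPP5, and their levels in the low groups rest on few counts. Of the rows flanking the receptor genes, AT4G16855, an uncharacterised gene before RPP4, also divided the libraries, with 3 to 15 counts in each library of the high groups and the lowest value of the table in all 12 libraries of the low groups. Other flanking rows overlapped: VRN2 (AT4G16845), a polycomb gene, stood at 3.16 to 5.19 CPM in the high groups and 2.70 to 5.32 CPM in the low groups, and RLM3 (AT4G16990), a receptor-like gene without leucine-rich repeats, at 144.2 to 240.1 CPM and 101.3 to 312.5 CPM.

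AT4G16960 was an exception, in that replicates of one group differed. It stood at 49.4, 43.3 and 46.6 CPM in SW_LLW, at 55.6 and 53.3 CPM in IT_LLC replicates 1 and 2, at 51.6 CPM in SW_LLC replicate 2 and at 74.8 CPM in IT_HLC replicate 1. In the other libraries of the same groups it stood far lower, at 9.33 and 9.59 CPM in SW_LLC replicates 1 and 3, 6.06 and 6.85 CPM in IT_HLC replicates 2 and 3, and 5.20 CPM in IT_LLC replicate 3. The low groups lay at 1.86 to 5.38 CPM and touched this lower level. Its near copy AT4G16940 stood at 50.3 CPM in IT_LLC replicate 3, against 8.34 and 7.88 CPM in the other IT_LLC libraries, and at 8.04 to 15.0 CPM in the other high libraries. The sum of both rows was 64.0, 61.1 and 55.5 CPM in IT_LLC replicates 1 to 3, but 21.5, 60.7 and 21.3 CPM in SW_LLC and 89.8, 15.1 and 16.6 CPM in IT_HLC. Replicates of 1 group differed in these near copies by far more than in RPP4, SNC1 or RPP5, and the part of read sharing in this was not tested.

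**Figure D2:**
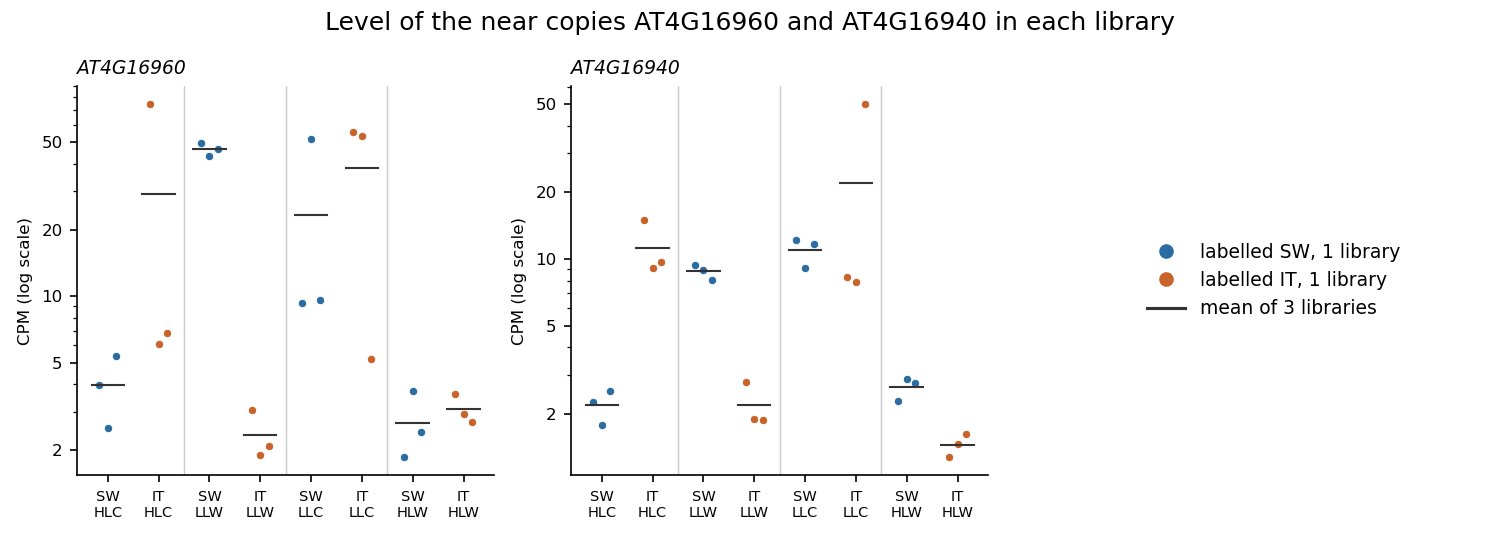
Level of AT4G16960 and AT4G16940, which share 50.2% and 28.4% of their 100-base windows with the cluster, in each library in CPM on a log axis, by group as labelled; points are libraries and lines are means of 3. Replicates split in IT_HLC, SW_LLC and IT_LLC for AT4G16960, and IT_LLC replicate 3 stands apart at 50.3 CPM for AT4G16940.

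Summed over the 9 receptor rows of the cluster in the table, the level was 108.9 to 128.8 CPM in SW_HLC, against 443.8 to 771.5 CPM in IT_HLC, and 452.1 to 499.4 CPM in SW_LLW, against 81.6 to 97.1 CPM in IT_LLW. It was 540.4 to 653.5 CPM in SW_LLC, against 463.3 to 558.5 CPM in IT_LLC, and 76.1 to 91.9 CPM in SW_HLW, against 91.4 to 110.2 CPM in IT_HLW. The division of the libraries held for the sum of the rows. Reads that were counted on none of these rows are missing from the sum, and the part of read sharing in the levels was not tested. Within the sum the shares shifted: RPP5 took 17.7% to 25.9% of it in the high groups and 9.07% to 16.6% in the low groups, while RPP4 took 20.9% to 24.8% and 29.3% to 34.1%. SNC1 took 18.4% to 22.0% in the high groups and 22.4% to 26.5% in the low groups.

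**Figure D3:**
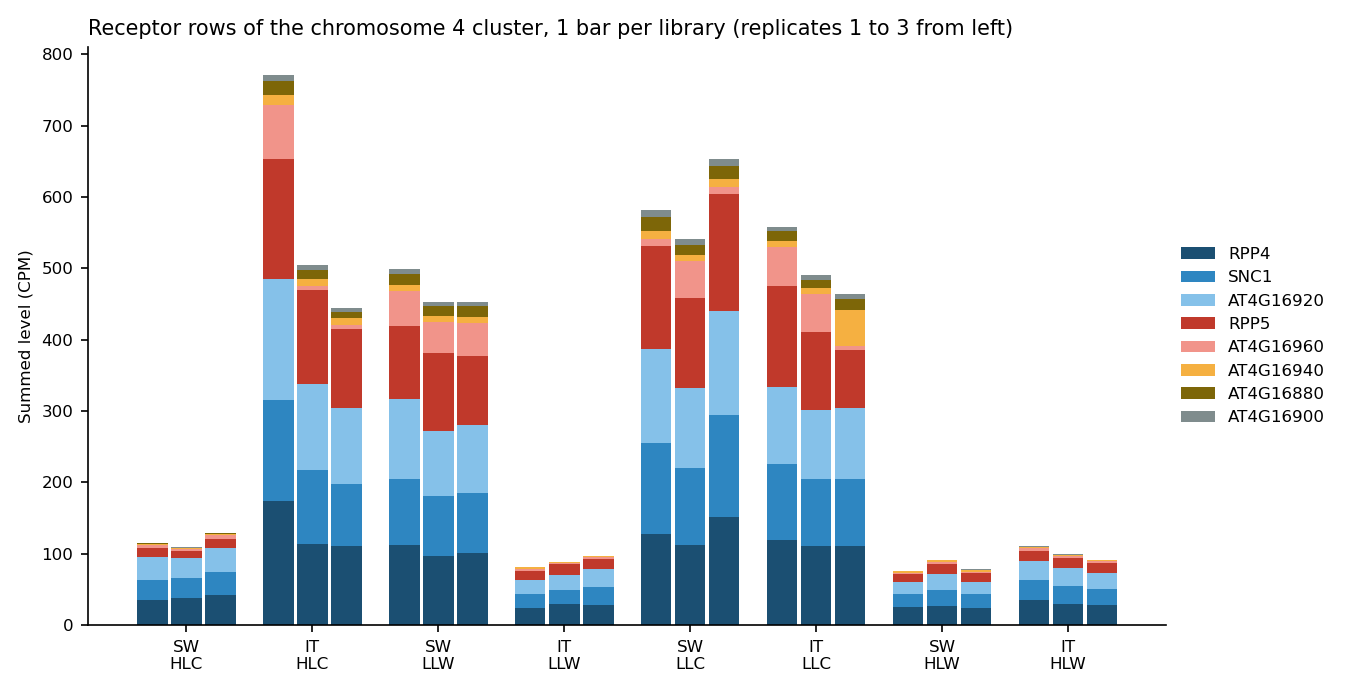
Levels of 8 receptor rows of the cluster stacked in 1 bar per library, in CPM, by group as labelled; the ninth, AT4G16930, is at the lowest value in every library and is left out. RPP4, SNC1, AT4G16920 and RPP5 make up most of each bar, and RPP5 is a larger part of the tall bars (17.7% to 25.9%) than of the short ones (9.07% to 16.6%).

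The question whether the genes also shift between regimes was tested with pairs of groups that lie on the same side of this division. IT_HLC against SW_LLW compares 2 high groups and SW_HLC against IT_LLW 2 low groups, and both pairs come from the same series of library codes, which are letters in HLC and LLW and numbers in LLC and HLW. Each pair differs in label as well as in regime, so that the 2 cannot be told apart in a pair; their mean, HLC against LLW, weighs both labels equally. The mean was higher in HLC for 4 of the 5 genes by edgeR's quasi-likelihood test with Benjamini-Hochberg adjustment, in which 55.8% of all genes were called, 28.5% as higher and 27.3% as lower. On the log2 scale RPP4 was higher by 0.42 ± 0.11 (± SE; adjusted p = 0.00276), SNC1 by 0.42 ± 0.12 (adjusted p = 0.00425), CNGC12 by 0.38 ± 0.09 (adjusted p = 0.00105) and CNGC11 by 1.14 ± 0.24 (adjusted p = 0.000424). RPP5 differed by 0.09 ± 0.12 (adjusted p = 0.582). Without IT_HLC replicate 3 the same 4 genes passed, with log2 differences of 0.48 for RPP4, 0.49 for SNC1, 0.41 for CNGC12 and 1.18 for CNGC11, and RPP5 was at 0.15 (adjusted p = 0.31). The value of CNGC11 was 1.79 without IT_LLW replicate 3 and 0.85 without IT_LLW replicate 1. These differences were smaller than the gap between the high and low groups. The gap was narrowest for CNGC12, where the lowest high library was only 1.57 times the highest low library.

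In the low pair, SW_HLC against IT_LLW, 46.3% of all genes were called. RPP4 rose by 0.49 ± 0.16 (adjusted p = 0.0154) and SNC1 by 0.49 ± 0.16 (adjusted p = 0.0207) in edgeR. Both calls were lost without IT_LLW replicate 1 (adjusted p = 0.0727 for RPP4 and 0.0887 for SNC1) and without SW_HLC replicate 3 (0.0626 and 0.0791), and that of SNC1 also without IT_LLW replicate 2 (0.0733). RPP5 did not pass, at -0.24 ± 0.18 (adjusted p = 0.287), and its levels of 10.5 to 13.2 CPM in SW_HLC overlapped those of 12.7 to 14.7 CPM in IT_LLW. CNGC12 rose by 0.64 ± 0.13 (adjusted p = 0.000368), with every SW_HLC library above every IT_LLW library, as for 31% of all genes. CNGC11 rose by 1.77 ± 0.41 (adjusted p = 0.00143); summed over libraries it had 97 counts in SW_HLC and 23 in IT_LLW, a normalised ratio of 3.46 (exact 95% interval 2.18 to 5.71, counting error only). Most of the IT_LLW counts lay in replicate 3, and without it the log2 difference was 3.08, against 1.2 without IT_LLW replicate 1; all 3 values passed the test.

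In the high pair, IT_HLC against SW_LLW, 41.3% of all genes were called and none of the 5 was in edgeR, while 3 had an unadjusted p below 0.05 and DESeq2 called 1. The log2 differences were 0.36 ± 0.15 for RPP4 (adjusted p = 0.0701), 0.35 ± 0.16 for SNC1 (adjusted p = 0.0892), 0.41 ± 0.17 for RPP5 (adjusted p = 0.0597), 0.50 ± 0.25 for CNGC11 (adjusted p = 0.108) and 0.12 ± 0.12 for CNGC12 (adjusted p = 0.468). Without IT_HLC replicate 3, RPP4 at 0.48, RPP5 at 0.55 and SNC1 at 0.50 passed, with adjusted p of 0.0257, 0.021 and 0.021. With no filter on low counts RPP4 at 0.42 and RPP5 at 0.48 passed (adjusted p = 0.0388 and 0.0404), and with organelle genes left out RPP5 passed at 0.44 (0.0498). RPP4 also passed without IT_HLC replicate 2, at 0.46 (adjusted p = 0.0331). RPP5 passed without IT_LLC replicate 1 or 3 (adjusted p = 0.038 and 0.0346), and CNGC11 without IT_LLW replicate 1 or 3 (0.0332 and 0.0295), libraries outside the pair that bear on the fitted spread. CNGC11 passed in DESeq2, at 0.51 (adjusted p = 0.00996). The difference between the high pair and the low pair, tested in edgeR, was not called for any of the 5, with 3.35% of all genes called; 3 of the 5 had an unadjusted p below 0.05 and DESeq2 called 1. It was -0.13 ± 0.22 for RPP4, -0.14 ± 0.23 for SNC1, 0.65 ± 0.25 for RPP5 (adjusted p = 0.153), -1.27 ± 0.48 for CNGC11 (adjusted p = 0.155) and -0.52 ± 0.17 for CNGC12 (adjusted p = 0.107). DESeq2 called CNGC11 there (adjusted p = 0.0463), as did edgeR without IT_LLW replicate 3, at -2.57 (adjusted p = 0.00809). None of the 5 was called in edgeR without IT_HLC replicate 3, where RPP5 was at 0.79 (adjusted p = 0.0718).

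In LLC and HLW the labels could be compared within a regime and within one series of library codes. SW against IT in LLC called 42.8% of all genes and none of the 5 by edgeR, while 3 had an unadjusted p below 0.05 and DESeq2 called 1. The log2 differences were 0.20 ± 0.15 for RPP4 (adjusted p = 0.3), 0.37 ± 0.16 for SNC1 (adjusted p = 0.0725), 0.39 ± 0.17 for RPP5 (adjusted p = 0.0727), 0.57 ± 0.25 for CNGC11 (adjusted p = 0.0677) and 0.03 ± 0.12 for CNGC12 (adjusted p = 0.889). CNGC11 was nevertheless higher in every SW_LLC library than in every IT_LLC library, as were 25.9% of all genes, and DESeq2 called it at 0.58 (adjusted p = 0.00321), as did edgeR without IT_LLW replicate 1 or 3 (0.0183 and 0.0161). SNC1 at 0.47 and RPP5 at 0.48 passed in edgeR without SW_LLC replicate 2 (adjusted p = 0.0325 and 0.042), RPP5 at 0.59 without IT_LLC replicate 1 (0.0129) and SNC1 at 0.36 without IT_HLC replicate 1 (0.0397). SW against IT in HLW called 24.4% of all genes, and among the 5 both channels and none of the receptors. CNGC12 changed by -0.61 ± 0.13 (adjusted p = 0.00196) and CNGC11 changed by -3.85 ± 0.53 (adjusted p = 3.79e-05), with no overlap in that direction, which 21.3% of all genes showed, and it was at -4.73 without SW_HLW replicate 1. CNGC11 had 6 counts in SW_HLW and 87 in IT_HLW over 3 libraries each, a normalised ratio of 0.0658 (exact 95% interval 0.0235 to 0.149, counting error only). RPP4 at -0.30, SNC1 at -0.30 and RPP5 at -0.21 did not pass (adjusted p = 0.183, 0.207 and 0.451), and none of them had an unadjusted p below 0.05 or a call in DESeq2.

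**Figure D4:**
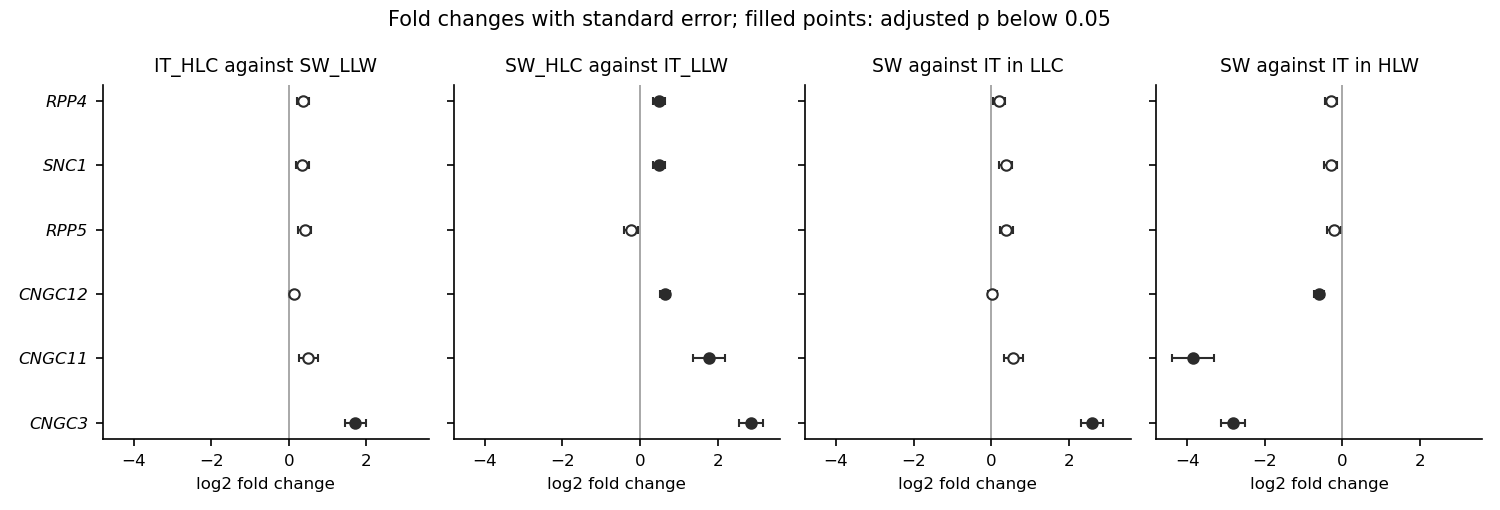
Log2 fold changes with standard errors from edgeR for the 5 genes and CNGC3 in 4 comparisons between groups on the same side of the division; filled points have an adjusted p below 0.05. The receptor genes lie within -0.30 to 0.49 in all 4 comparisons, while CNGC11 reaches -3.85 and CNGC3 runs from -2.82 to 2.85.

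CNGC3 (AT2G46430), the channel gene directly before CNGC11 in the tandem array, did not share the division. It stood at 13.2 ± 1.2 CPM in SW_HLC and 19.3 ± 5.4 CPM in IT_HLC, at 5.92 ± 1.70 CPM in SW_LLW and 1.81 ± 0.58 CPM in IT_LLW, at 29.5 ± 9.6 CPM in SW_LLC and 4.92 ± 1.58 CPM in IT_LLC, and at 1.97 ± 0.36 CPM in SW_HLW and 14.0 ± 2.1 CPM in IT_HLW (SD, n = 3 each). In edgeR it rose by 2.28 ± 0.20 in HLC against LLW (adjusted p = 1.2e-08) and by 2.59 ± 0.28 in SW against IT in LLC (adjusted p = 2.52e-06), and changed by -2.82 ± 0.31 in SW against IT in HLW (adjusted p = 3.78e-06). CNGC11 had the same sign in these 3 comparisons, at 1.14, 0.57 and -3.85, and was called in the first and the last. CNGC3 shared 3.9% of its 100-base windows and 8.9% of its 50-base windows with CNGC11. The part of read sharing in this likeness was not tested. WRKY46 (AT2G46400), a transcription factor gene of the immune response nearby, rose by 2.91 ± 0.54 in SW against IT in LLC (adjusted p = 0.000278) and changed by -2.18 ± 0.57 in HLW (adjusted p = 0.00889). In HLC against LLW it changed by -1.48 ± 0.47 (adjusted p = 0.0107), the other way from both channels. There WRKY46 was at -1.81 and CNGC3 at 2.32 without IT_HLC replicate 3. Of 14 CNGC genes tested besides CNGC11 and CNGC12, 6 rose and none fell in SW against IT in LLC, and 1 rose and 4 fell in HLW. These counts include CNGC3. The medians were 0.36 and 0.21 on the log2 scale against -0.02 and -0.01 over all genes. Of all genes 22.7% rose and 20% fell in LLC, and 10.2% rose and 14.2% fell in HLW.

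The genes through which TIR receptors signal were compared with the receptors in the same libraries. In SW against IT in LLC, where no receptor of the 3 was called, 19 of 20 salicylic acid genes rose and none fell, with a median log2 change of 4.26, against -0.02 over all genes and 22.7% of all genes called higher and 20% lower. Of 10 genes of the EDS1 and helper receptor list, 9 rose, with a median of 1.63. EDS1 rose by 2.56 ± 0.34 (adjusted p = 1.64e-05), PAD4, its partner, by 2.56 ± 0.42 (adjusted p = 9.05e-05), and ICS1, which makes the salicylic acid precursor isochorismate, by 5.32 ± 0.64 (adjusted p = 7.53e-06) in edgeR. ICS1 stood at 189.2, 27.1 and 335.1 CPM in SW_LLC, against 3.48, 5.51 and 4.79 CPM in IT_LLC. The replicates of SW_LLC were far apart in ICS1, while SNC1 stood between 107.8 and 143.6 CPM in them. In SW against IT in HLW the direction was the reverse, with 10 of 20 salicylic acid genes and 6 of 10 genes of the EDS1 list lower and none higher (medians -1.50 and -0.93, against -0.01 over all genes, with 14.2% of all genes called lower and 10.2% higher). NPR4, a salicylic acid receptor gene, changed by -3.15 ± 0.26 (adjusted p = 5.34e-07) and EDS1 by -1.62 ± 0.34 (adjusted p = 0.00168).

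In LLW and HLC, where the receptor levels stood 3.47 to 11.6 times apart between the labels, the salicylic acid genes were called in both directions. The called genes of the EDS1 list all rose in SW against IT in LLW and all fell in HLC. In SW against IT in LLW, 4 of 20 salicylic acid genes rose and 2 fell (median 0.75 against 0.03 over all genes, of which 13% rose and 12.5% fell), among them PR2 at 3.48 ± 0.71 and PR5 at 2.84 ± 0.69, 2 secreted defence proteins, and NPR3, a salicylic acid receptor, at -1.56 ± 0.30. In SW against IT in HLC, 1 rose and 4 fell (median -0.45 against 0.01, with 12.6% and 11.8% of all genes), with PR5 at -2.12 ± 0.62 and NPR3 at 1.08 ± 0.28. With IT_HLC replicate 3 left out, 1 of 21 rose and 2 fell (median -0.03, with 14.5% and 13.4% of all genes), with PR5 at -2.21 and NPR3 at 1.51. Of the EDS1 list, 2 of 10 rose in LLW (median 0.47) and 2 fell in HLC (median -0.21), and both were helper receptor genes of the ADR1 family, ADR1-L1 (0.71 ± 0.20 in LLW and -0.90 ± 0.20 in HLC, or -0.92 without IT_HLC replicate 3) and ADR1-L3. Without that library 2 of 11 fell in HLC (median -0.06). ADR1-L3 had the layout of the 5 genes at a very low level, with 1.23 to 2.78 CPM in the 4 high groups, and was at the lowest value of the table in all 12 libraries of the 4 low groups. EDS1 itself stood at 17.4 to 20.3 CPM in SW_HLC and 17.1 to 28.0 CPM in IT_HLC, and at 17.4 to 21.7 CPM in SW_LLW and 11.7 to 14.7 CPM in IT_LLW. PR1, the usual marker of salicylic acid signalling, stood at 116.0, 391.1 and 447.1 CPM in SW_HLC, against 1457, 414.4 and 1182 CPM in IT_HLC. In LLW it stood at 3.80, 70.2 and 21.6 CPM in SW_LLW, against 4.84, 1.24 and 2.10 CPM in IT_LLW. The relation of PR1 to the receptor levels was not tested.

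**Figure D5:**
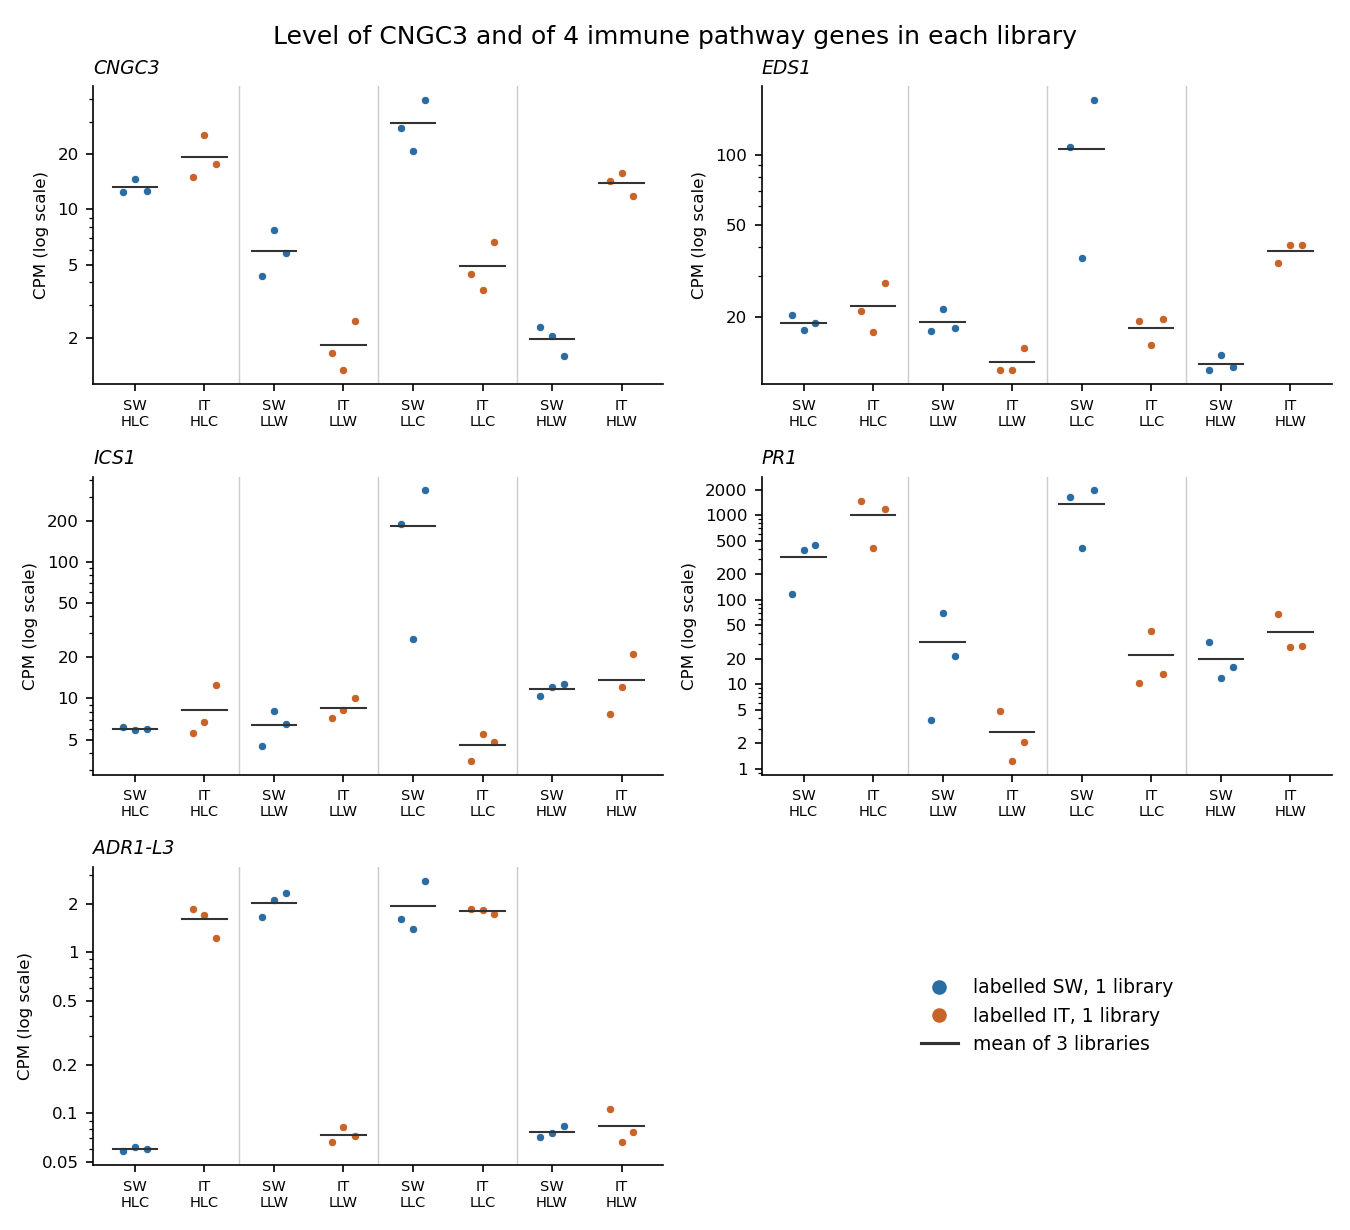
Level of CNGC3 and of EDS1, ICS1, PR1 and ADR1-L3 in each library, in CPM on a log axis, by group as labelled; points are libraries and lines are means of 3. Of the genes shown, ADR1-L3 divides the libraries as RPP5 does, at 1.23 to 2.78 CPM in IT_HLC, SW_LLW, SW_LLC and IT_LLC and 0.058 to 0.106 CPM, the lowest value, elsewhere, and EDS1 and ICS1 are highest in SW_LLC, where the replicates are far apart.

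In HLC against LLW, averaged over the labels, 10 of 20 salicylic acid genes rose and 3 fell (median 1.01 against 0.01 over all genes, of which 28.5% rose and 27.3% fell), with PR1 at 5.92 ± 0.72, LURP1, a defence gene induced by the downy mildew pathogen, at 5.07 ± 0.62 and NPR4 at 1.44 ± 0.17. Of 26 known regulators of SNC1 that were tested, 4 rose and 5 fell in this comparison, with a median of -0.08, against the same shares of all genes. Without IT_HLC replicate 3, when more genes of some lists passed the filter, 9 of 21 salicylic acid genes rose and 3 fell (median 0.72), 4 regulators rose and 5 fell (median -0.03), and 27.3% of all genes rose and 26.5% fell. PR1 was then at 5.86, LURP1 at 4.81, NPR4 at 1.37, MUSE3 at 0.83 and MOS12 at -0.95, all called. MUSE3, a ubiquitin ligase that promotes turnover of SNC1 protein, rose by 0.80 ± 0.10 and MOS12, a cyclin-like protein needed for SNC1 splicing, changed by -0.97 ± 0.08. In SW against IT, 3 regulators rose and 1 fell in LLW, none rose and 4 fell in HLC with or without IT_HLC replicate 3, 7 rose and 2 fell in LLC, and 2 rose and 3 fell in HLW. CPR1, the F-box protein that limits SNC1 protein, changed by -0.65 ± 0.18 in SW against IT in HLC (adjusted p = 0.0107 in edgeR), or by -0.72 without IT_HLC replicate 3, in the same direction as SNC1 there. HSP90.3, a chaperone, rose by 1.35 ± 0.23 in LLW and changed by -1.24 ± 0.23 in HLW. The calls among the 26 regulators numbered 4 in LLW, 4 in HLC, 9 in LLC and 5 in HLW, where 25.5%, 24.4%, 42.8% and 24.4% of all genes were called.

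Other receptor genes outside the cluster were mixed. Of 14 further TIR receptor genes tested, 3 rose and 5 fell in SW against IT in LLW (median 0.01, with 25.5% of all genes called), and 3 rose and 5 fell in HLC (median -0.39, with 24.4%). In HLC 3 of 15 rose and 6 fell without IT_HLC replicate 3 (median -0.48). RPP2A and RPP2B, a receptor pair that acts together against downy mildew, had the layout of the 5 genes: RPP2A stood at 18.5 to 39.9 CPM in the high groups and at 0.058 to 0.60 CPM in the low groups, and RPP2B at 19.0 to 43.5 CPM and 0.0834 to 4.20 CPM. WRR4, a white rust resistance gene, was opposite in LLW, at -5.27 ± 0.41. Among 8 coiled-coil receptor genes, RPP13 rose by 1.16 ± 0.14 in LLW and changed by -0.93 ± 0.13 in HLC, or by -0.97 without IT_HLC replicate 3, in the direction of the cluster. In SW against IT in LLC, 7 of the 14 TIR genes rose and none fell (median 0.45, with 22.7% of all genes higher and 20% lower), and in HLW none rose and 6 fell (median -0.59, with 10.2% and 14.2%), with SOC3 at 2.02 ± 0.33 and -2.08 ± 0.35. Of the coiled-coil genes, 1 rose and 1 fell in LLC and none rose and 4 fell in HLW (median -0.86), among them ZAR1 at -1.75 ± 0.22. In HLC against LLW, where 28.5% of all genes rose and 27.3% fell, 4 TIR genes rose and 2 fell (median -0.04), with TAO1 at -0.92 ± 0.11, and 4 coiled-coil genes rose and 2 fell (median 0.25), with ZAR1 at 1.18 ± 0.15. Without IT_HLC replicate 3, 2 of 15 TIR genes rose and 2 fell (median -0.11) and 3 coiled-coil genes rose and 1 fell (median 0.19), with TAO1 at -0.93 and ZAR1 at 1.14.

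Genes most like the members over the 24 libraries were sought among 6941 genes with a mean log2 CPM of at least 3, by Pearson's r of log2 CPM. Since the libraries fall into 2 sets, r mostly reflects that division and is given without a test. AT4G16920 came first for RPP4 and SNC1 (r = 0.997 for each), CNGC11 (0.95) and CNGC12 (0.955), and second for RPP5 (0.978). AT2G25510, an uncharacterised gene in the gene table, came first for RPP5 (0.989), and stood at 175.9 to 970.5 CPM in the high groups and 0.58 to 1.91 CPM in the low groups. AT1G63360 was among the first 3 for RPP4 (0.981) and SNC1 (0.974), with 31.9 to 55.4 CPM and 7.59 to 13.9 CPM. PDIL5-4 came next for RPP5 (0.972), with 24.2 to 36.7 CPM and 12.5 to 16.3 CPM. The channels had AT4G38760 second (0.937 for CNGC11 and 0.955 for CNGC12), followed by AT5G24210 for CNGC11 (0.937) and AT4G27050 for CNGC12 (0.945). These 7 genes lie on chromosomes 1, 2, 4 and 5.

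Steps of light or of temperature set one series of library codes against the other, so they are described without a test. The light step from LLC to HLC also took the leaves from 16 °C to 14 °C by day. The share of all genes whose groups did not overlap was not counted for these steps. In IT the larger step was between temperatures: the mean of RPP5 was 7.95 times as high in IT_LLC as in IT_LLW and 9.58 times as high in IT_HLC as in IT_HLW. The temperature steps in IT and the light steps in SW run between the high and the low groups. In them the regime cannot be told apart from the division of the libraries that goes against the labels. Between light levels the IT groups overlapped in RPP5, at 1.02 times in IT_HLW over IT_LLW and 1.23 times in IT_HLC over IT_LLC. In SW the larger step was between light levels, with RPP5 in SW_HLC at 0.0812 times SW_LLC and SW_HLW at 0.120 times SW_LLW. Between temperatures RPP5 was at 1.42 times in SW_LLC over SW_LLW, without overlap, and 0.956 times in SW_HLC over SW_HLW, with overlap. RPP4 was at 4.15 and 4.29 times and SNC1 at 4.58 and 4.41 times for the 2 temperature steps in IT, and at 0.293 and 0.242 times and 0.237 and 0.234 times for the 2 light steps in SW. Between temperatures RPP4 was at 1.26 times in SW_LLC over SW_LLW and 1.52 times in SW_HLC over SW_HLW, and SNC1 at 1.46 and 1.47 times. These SW groups did not overlap in either gene. CNGC12 was at 2.77 and 3.02 times for the temperature steps in IT and at 0.551 and 0.235 times for the light steps in SW, and SW_HLC was at 2.18 times SW_HLW. CNGC11 was at 38.1 times in IT_LLC over IT_LLW and 13.2 times in IT_HLC over IT_HLW, and at 0.0601 times in SW_HLC over SW_LLC and 0.00691 times in SW_HLW over SW_LLW. CNGC11 also differed in the other steps, at 4.05 times in IT_HLW over IT_LLW and 1.40 times in IT_HLC over IT_LLC. In SW it was at 1.5 times in SW_LLC over SW_LLW and 13.1 times in SW_HLC over SW_HLW. None of these steps had overlap, and the IT_LLW and SW_HLW levels rest on few counts.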

How the data were processed

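The deposited table holds whole-number counts per gene with 1 column per library, as the values show; the authors pooled no replicates in it, and its lowest value is 1. Per the submitters' processing notes the tools were HISAT, StringTie and DESeq2 and the build was TAIR10; the sources used here give no versions, no roles and no strand setting. Reads of SW and IT plants were counted on a single reference, so transcripts of a diverged allele can be undercounted. CPM values used TMM factors.

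Counts as deposited were tested with edgeR 4.0.16 (R 4.3.3; glmQLFit with robust estimation, glmQLFTest; 8 groups, 24 libraries) on 17709 genes kept by filterByExpr (minimum count 10, total 15), with Benjamini-Hochberg adjustment and a threshold of 0.05. The code was tested on simulated data. Alternatives were DESeq2 1.42.0 and 5 other settings, and leaving out each of 24 libraries. Sums of the receptor rows and of CNGC3, CNGC11 and CNGC12 were added after the values were seen.

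The members and gene lists were chosen with earlier results of these data known. Text names the members, all rows from AT4G16840 to AT4G16990 and AT2G46400 to AT2G46490 that bear on them, up to 3 genes of smallest adjusted p per list and comparison, and the 3 genes most like each member (log2 of CPM plus 0.1). Symbols, gene order and transcript lengths are from RefSeq for TAIR10.1 (28932 identifiers matched, 4678 did not). No coordinates or sequences are given, as the builds differ in name.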

Additional observations from a re-analysis of the deposited data

Results flagged for a closer look

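The effect of HLC against LLW differed between the labels for all 5 genes. SW minus IT was -6.41 on the log2 scale for RPP5, -3.91 for SNC1, -3.72 for RPP4, -9.20 for CNGC11 and -2.68 for CNGC12. This is the contrast on which the genes were picked, so the values describe the choice and carry no test.

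CNGC11 differed between the labels in opposite directions in 2 regimes. Every SW_LLC library stood above every IT_LLC library, at a log2 difference of 0.57, and every SW_HLW library stood below every IT_HLW library, at -3.85. The difference between these differences was not tested, and the SW_HLW libraries held 4, 1 and 1 counts.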

How the results depend on the processing

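For the 5 genes in 6 comparisons, 30 fold changes were refitted under 30 alternatives. Of 900 values 874 kept their side of the threshold, 21 gained a call, 5 lost one and none changed direction with a call. Among the 874, 4 uncalled values changed sign and lay within 0.01 of 0. The 5 losses were RPP4 and SNC1 in SW_HLC against IT_LLW, each with 1 library left out. The count of genes called in the difference between the high and low pairs was 593, 937 in DESeq2 and 298 to 892 with 1 library left out. SW against IT in HLC called 4314 genes and 2740 to 5068 with 1 library left out, the lowest without IT_HLC replicate 2. With 1 subtracted from every value CNGC11 in HLW was at -4.74. Same-numbered libraries of different groups did not deviate together (median r = -0.001 over 84 pairs of libraries, 11 above 0.1), so the numbers do not pair them; with the replicate block 499 genes were called in the difference between pairs and no call of the 5 genes changed. With the receptor rows of the cluster summed (chosen after seeing the data), the receptor sum was higher in HLC against LLW by 0.35 ± 0.12 (adjusted p = 0.0174 in edgeR). It was called in neither pair alone (0.29, adjusted p = 0.17, and 0.40, adjusted p = 0.0579), in LLC (0.23) nor in HLW (-0.29). Without IT_HLC replicate 3 the receptor sum was called in both pairs (adjusted p = 0.0417 and 0.0384). With all 24 libraries, the sum of CNGC3, CNGC11 and CNGC12 rose by 0.92 ± 0.10 in HLC against LLW (adjusted p = 1.07e-07 in edgeR). It was also called in the high pair (0.52, adjusted p = 0.00393), the low pair (1.32, 2.91e-07) and the difference between pairs (-0.80, 0.0261). The same held in LLC (0.73, adjusted p = 0.000238) and HLW (-1.56, 7.55e-07). Depth limits CNGC11 in IT_LLW and SW_HLW, where counts near 1 cannot be told from none.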
